A study of Mus musculus with 2 samples.

Results

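The genes described here are the transferrin receptor gene Tfrc and the heme synthesis enzyme genes Alas1, Alas2, Alad, Uros, Urod, Cpox, Ppox and Fech in mouse splenic γδ T cells. The 9 genes were taken by exact symbol from a table of 24091 genes, and all 9 had a mean of at least 1 CPM (counts per 1000000, after TMM scaling, which sets the libraries level by a trimmed mean of gene ratios) over both libraries, as did 11715 genes in all. Alas2 passed that minimum through its counts in 1 of the libraries alone. A γδ T cell is a T lymphocyte with an antigen receptor built from a γ and a δ chain. Total RNA was sequenced from 1 library labelled freshly isolated (fresh below) and from 1 library with the label IL-2 expanded (expanded below). Per the labels, γδ T cells from spleen were sorted by FACS, and expansion used plate-bound anti-CD3, soluble anti-CD28 and recombinant mouse IL-2 at 100 U/ml over 5 days. Both libraries carry the same growth, treatment and extraction protocols, the last of which speaks of cultured cells. The fresh library is set apart by its treatment label, its title and the description of the series, so its state rests on these and not on the protocols. The effects of receptor stimulation, culture and IL-2 cannot be told apart in this design. Strain, age, sex and the number of animals behind each library are not given in the sources used here.

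Transferrin receptor 1 carries iron-loaded transferrin into endosomes, where the iron is released and reduced before it reaches the cytosol. Proliferating cells need that iron for ribonucleotide reductase, iron-sulphur proteins and heme, and the receptor protein, CD71, is a long-used marker of activated lymphocytes. Heme synthesis starts in the mitochondrion with the joining of glycine and succinyl-CoA, passes through the cytosol, and returns to the mitochondrion, where iron is inserted into protoporphyrin. Alas1 encodes the housekeeping form of the starting enzyme and Alas2 the erythroid form.

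The mRNAs of 2 members carry iron-responsive elements, short hairpins bound by the iron regulatory proteins when iron is scarce. Binding in the 3′ UTR protects Tfrc mRNA from decay, and binding in the 5′ UTR blocks translation of Alas2 mRNA. The elements are shown because they set the receptor and the erythroid enzyme apart from the other members. The search took a C, 5 bases, the loop CAGTGN and 5 bases that pair with the 5 before the loop (G to T pairs allowed), in the UTRs of GENCODE M21 protein-coding transcripts on build GRCm38. Capitals mark the loop, and sequences run 5′ to 3′ on the transcript strand.
Tfrc element 1: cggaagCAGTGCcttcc
Tfrc element 2: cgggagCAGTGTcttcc
Tfrc element 3: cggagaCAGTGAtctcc
Tfrc element 4: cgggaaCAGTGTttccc
Alas2 element: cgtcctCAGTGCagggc
The Tfrc elements lie in the 3′ UTR at chr16:32631225-32631241, chr16:32631604-32631620, chr16:32631669-32631685 and chr16:32631716-32631732, all on the + strand. The Alas2 element lies in the 5′ UTR at chrX:150547464-150547480, also on the + strand. No such match was found in the UTRs of the other 7 members under this strict rule. The rule can miss elements, so those shown for Tfrc need not be all that its mRNA carries. Of 21877 protein-coding genes, 129 (0.590%) had a match in a 3′ UTR and 31 (0.142%) in a 5′ UTR. A match is a description of the sequence, and protein binding was not measured.

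The libraries held 20379385 counts (fresh) and 22204099 counts (expanded). With 1 library in each group there was no measure of the spread between samples, so no difference was tested. Folds are plain ratios of CPM with exact 95% intervals that cover counting error only. A gene was counted as higher or lower where its log2 fold, with a prior count of 2, was at least 2-fold in size. All 8 T cell markers had counts in both libraries, with Cd3e at 734 and 688 CPM in fresh and expanded cells. Of these 8, 2 were at least 2-fold lower in the expanded library and none higher (median log2 fold -0.30). Among all genes measured, 25.0% were at least 2-fold lower and 22.4% higher. Cd5 stood at 132 and 4.42 CPM, and Lck at 1184 and 563 CPM (log2 fold -1.07, and -0.98 with scaling by summed Cd3 counts). Of the macrophage and monocyte markers, 18 of 19 measured were at least 2-fold lower in the expanded library, with a summed level over 20 genes of 1125 CPM in fresh and 46.0 CPM in expanded cells. Among them 12 had 0 counts in the expanded library, including Vcam1, Sirpa, Cd163 and Spic. Of 10 B cell markers, all 8 measured were lower, with a summed level of 917 and 3.81 CPM and 6 genes at 0 counts in the expanded library, among them Jchain and Pax5. Where a marker with 0 counts in the expanded library passed the minimum of 1 CPM, it did so through the fresh library alone. In bulk RNA, fewer cells of a type and less RNA per cell cannot be told apart, and the share of these cells in the levels below was not tested.

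Tfrc, the iron uptake receptor, was 7.26-fold higher in expanded than in fresh cells, and Cpox, the coproporphyrinogen oxidase, was 3.60-fold higher. Ppox, the enzyme after Cpox, was 3.11-fold lower, and Alas2 had counts in fresh cells alone. Of the 9 members, 3 (Tfrc, Cpox and Alad) had a level in expanded cells at least 2-fold above that in fresh cells, against 22.4% of all genes measured. Another 2 were at least 2-fold lower (Alas2 and Ppox), against 25.0% of all genes. The remaining 4 (Alas1, Uros, Urod and Fech) lay within 2-fold. At least 4-fold, 1 member was higher (Tfrc, against 8.92% of all genes) and 1 lower (Alas2, against 13.5%). The median log2 fold was 0.22 over the members and 0.04 over all genes measured. For a list of 9 genes these counts are near the shares over all genes, and the members as a group did not lie to a single side.

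**Figure D1:**
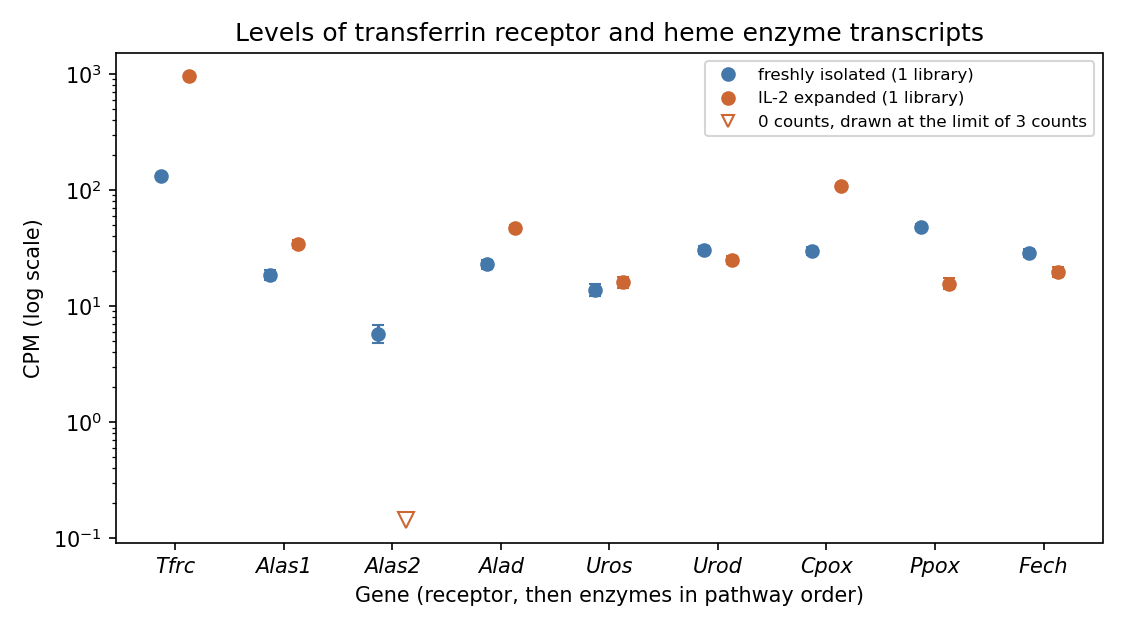
Level of each member in CPM (log axis) in the fresh library (blue) and the expanded library (orange), with exact 95% counting intervals, most of them smaller than the point. Tfrc goes from 133 to 964 CPM, Cpox from 30.1 to 108 CPM and Ppox from 48.5 to 15.6 CPM, and Alas2, with 0 counts in the expanded library, is drawn as an open triangle at the limit of 3 counts.

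Tfrc (chromosome 16, 32608896 to 32632794, + strand, build GRCm38) had 2858 counts in the fresh library and 20259 counts in the expanded library. Its level was 133 CPM (interval 128 to 138) in fresh cells and 964 CPM (950 to 977) in expanded cells. Tfrc was therefore 7.26-fold higher in the expanded library (interval 6.98 to 7.55), the furthest up of the members. By CPM it ranked 1712 in the fresh library and 86 in the expanded library, among all genes of the table. By log2 fold it ranked 630 of the 11715 genes measured, so that 5.37% of them were further up. Per kilobase of the deposited gene length its level was 24.0 CPM in fresh and 174 CPM in expanded cells.

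Set against other genes in the same library, Tfrc was also higher. Its counts were 0.181 times those of Cd3e in fresh cells and 1.40 times those of Cd3e in expanded cells, a change of 7.73-fold (interval 7.39 to 8.09). Against Fth1, the ferritin heavy chain that stores iron, the ratio of Tfrc counts went from 0.178 to 0.790, a change of 4.45-fold (4.25 to 4.65). Fth1 has many processed copies in the genome, so its counts and this ratio are uncertain beyond that interval. Neither library scaling nor gene length enters these changes in ratio.

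The heme enzymes differed among themselves in direction and size. The starting enzyme of non-erythroid cells, Alas1 (chromosome 9, 106233455 to 106247954), had 399 counts (18.5 CPM) in fresh cells and 722 counts (34.3 CPM) in expanded cells. Alas1 was 1.85-fold higher in the expanded library (interval 1.64 to 2.10), and the upper end of the interval reached past 2-fold. Alad (chromosome 4, 62505984 to 62520063), which joins 2 molecules of aminolevulinate into porphobilinogen, had 494 counts (22.9 CPM) and 986 counts (46.9 CPM). Alad was 2.04-fold higher (interval 1.83 to 2.28), the called member nearest to 2-fold. Its log2 fold was 1.03 with the main scaling and 0.87 with scaling by total count, which ends the call.

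Uros and Urod, cytosolic enzymes that act later in the pathway, were within 2-fold in both libraries. Uros (chromosome 7, 133686355 to 133709295), which closes the tetrapyrrole ring, had 296 counts (13.8 CPM) in fresh and 338 counts (16.1 CPM) in expanded cells. The fold of Uros was 1.17 (interval 0.997 to 1.37), so a difference was not detectable at this depth. Urod (chromosome 4, 116989965 to 116994413), which decarboxylates uroporphyrinogen, had 656 counts (30.5 CPM) and 527 counts (25.1 CPM). Urod was 1.22-fold lower in expanded cells (interval 1.08 to 1.37).

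The last 3 enzymes act in mitochondria, and their transcripts parted. Cpox (chromosome 16, 58670208 to 58680389), coproporphyrinogen oxidase, had 648 counts (30.1 CPM) in fresh and 2280 counts (108 CPM) in expanded cells. Cpox was 3.60-fold higher (interval 3.30 to 3.94), and 10.0% of genes measured were further up. Ppox (chromosome 1, 171276992 to 171281186), the oxidase of the following step, had 1043 counts (48.5 CPM) and 328 counts (15.6 CPM). Ppox was 3.11-fold lower in expanded cells (interval 2.74 to 3.53), and 16.3% of genes measured were further down. Fech, ferrochelatase, which inserts the iron, had 624 counts (29.0 CPM) and 412 counts (19.6 CPM), 1.48-fold lower in expanded cells (interval 1.30 to 1.68).

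Among members next to each other in pathway order (Alas2 left out) the widest change in ratio lay between Cpox and Ppox. Cpox had 0.621 counts for each count of Ppox in fresh cells and 6.95 in expanded cells, a change of 11.2-fold (interval 9.59 to 13.1). The ratio of Urod to Cpox counts went the other way, from 1.01 to 0.231, 4.38-fold lower (3.78 to 5.07). The ratio of Alas1 to Alad counts was 0.808 and 0.732, and the interval of its change (0.768 to 1.07) holds 1. From the starting to the final enzyme, the ratio of Alas1 to Fech counts went from 0.639 to 1.75, a change of 2.74-fold (2.3 to 3.3). Exons of Ppox overlap those of B4galt3 on the other strand over 17.5% of the Ppox exon length in GENCODE M21. Cpox exons likewise overlap Gpr15 over 3.06% of their length, and Alas1 exons overlap an antisense gene over 7.53%. The use of strand in counting is not given in the sources used here, so reads from those stretches cannot be told apart. B4galt3 stood at 32.2 CPM in fresh and 21.7 CPM in expanded cells, and Gpr15 at 20.9 and 13.6 CPM.

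**Figure D2:**
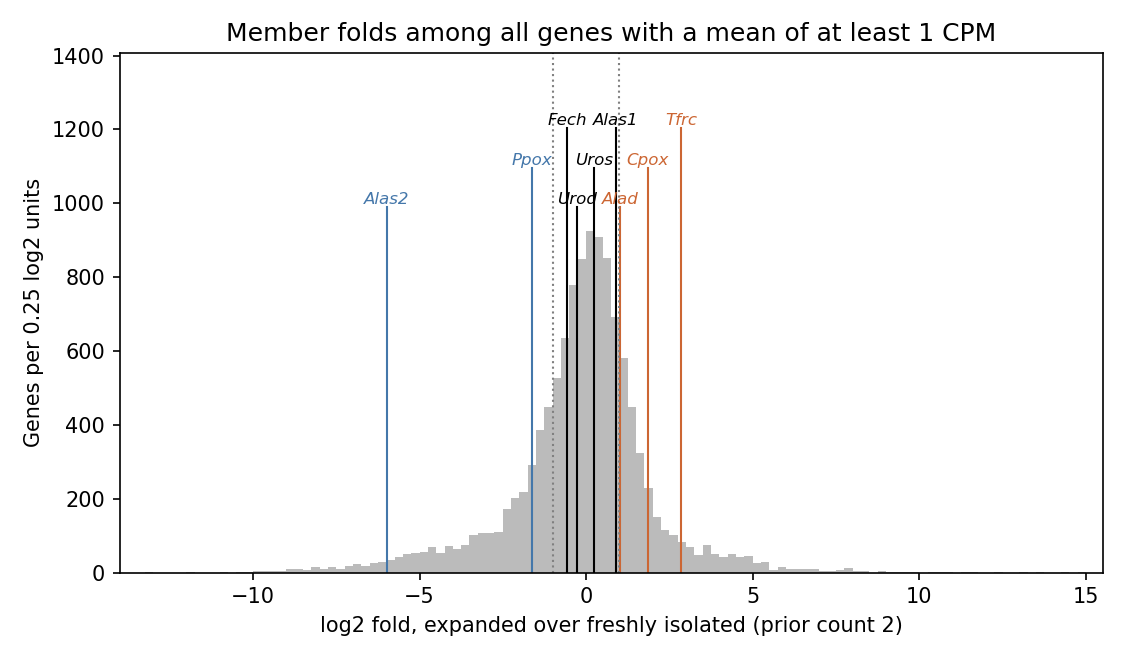
Histogram of log2 folds (expanded over fresh, prior count 2) of the 11715 genes measured, in grey, with each member as a line coloured orange where at least 2-fold higher, blue where at least 2-fold lower and black between. Dotted lines mark 2-fold. Tfrc at 2.86 and Cpox at 1.85 lie on the upper flank, Ppox at -1.63 and Alas2 at -5.97 on the lower, and 4 members lie between the dotted lines.

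Alas2, the erythroid form of the starting enzyme (chromosome X, 150547417 to 150570622, + strand), was found in the fresh library alone. It had 125 counts there (5.81 CPM, interval 4.83 to 6.92) and 0 counts in the expanded library, which allows a level of up to 0.143 CPM (3 counts). Against that limit Alas2 was at least 40.7-fold lower in the expanded library, and the exact interval of the ratio starts at 32.6-fold. Of the Alas1 and Alas2 counts together, Alas2 made up 23.9% in fresh cells (exact Clopper-Pearson 95% interval 20.3 to 27.7) and 0% in expanded cells (limit of 3 counts, 0.416%). Per kilobase, Alas2 made up 34.1% of their summed level in fresh cells with the deposited lengths and 44.6% with GENCODE exon lengths. Exons of Alas2 overlap those of Apex2 on the other strand over 12.9% of the Alas2 exon length, and Apex2 stood at 10.7 and 14.9 CPM.

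Erythroid transcripts moved with Alas2. All 14 erythroid markers examined had counts in the fresh library, and their summed level was 98.4 CPM there and 1.09 CPM in the expanded library. In the expanded library 8 of the 14 had 0 counts. These were the globin genes Hbb-bs and Hba-a2, the anion exchanger gene Slc4a1, Ermap, Rhag, Epb42, Cldn13 and Tspo2. Only 6 of the 14 passed the minimum mean of 1 CPM, and all 6 were at least 2-fold lower (25.0% of all genes were). Hbb-bs, Hba-a2, Slc4a1 and Ermap passed that minimum through the fresh library alone, and Sptb had 91 counts there and 1 count in the expanded library. For such genes the filter fixes a lower call in advance, so the share over all genes is no measure for them. Rhag, Epb42, Cldn13 and Tspo2 did not pass the minimum, and their counts in the fresh library were low (39, 29, 17 and 7). Hbb-bs had 44.8 CPM in fresh cells, Slc4a1 had 19.1 CPM and Hba-a2 had 13.2 CPM, against 5.81 CPM for Alas2. The erythroid factor gene Gata1 stood at 2.2 CPM in fresh and 0.523 CPM in expanded cells, and the erythropoietin receptor gene Epor at 1.39 and 0.285 CPM. The part of red cell precursors in the Alas2 level was not tested.

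**Figure D3:**
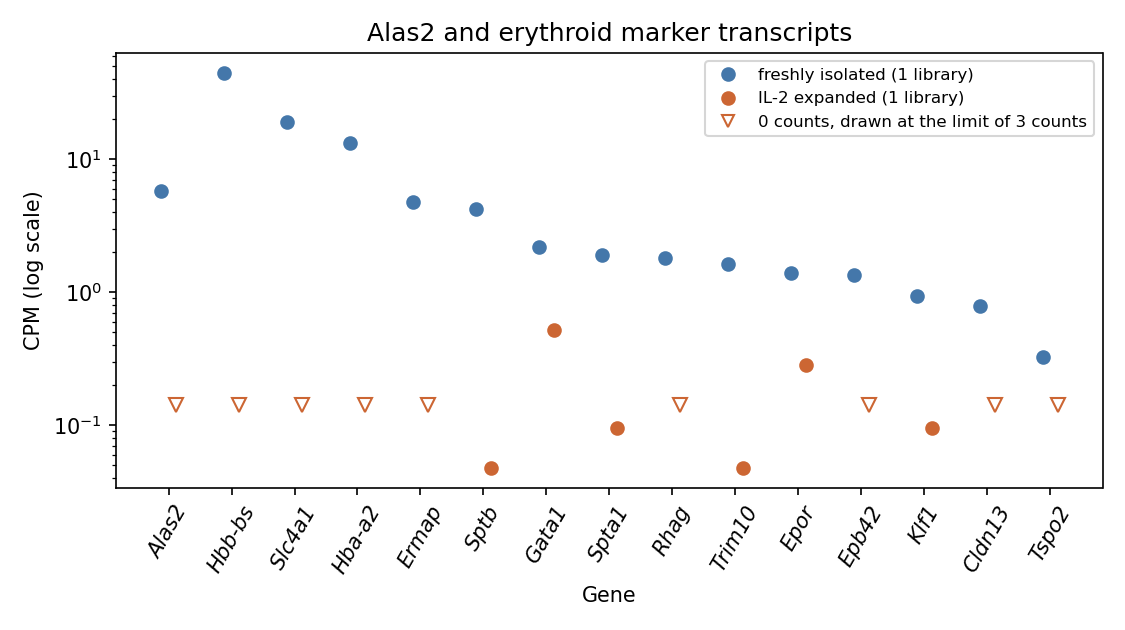
Levels in CPM (log axis) of Alas2 and the 14 erythroid markers examined, in the fresh library (blue) and the expanded library (orange). Alas2 and 8 markers have 0 counts in the expanded library (open triangles at the limit of 3 counts), and Gata1, at 0.523 CPM, is the highest of the markers there.

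Levels of the enzymes can be compared with each other only per length. With the deposited gene lengths, Ppox (26.8 CPM per kilobase) and Urod (20.6) were the highest enzymes in the fresh library. Fech followed at 8.71, Cpox at 6.10, Alas1 at 5.71, Uros at 5.70 and Alad at 5.00 CPM per kilobase, and Alas2 was lowest at 2.95. Neighbours in the order Cpox, Alas1, Uros and Alad did not differ beyond their counting intervals. In the expanded library Cpox was the highest member among the enzymes at 22.0 CPM per kilobase, followed by Urod at 16.95, and Ppox stood at 8.63. Alas1 at 10.6 and Alad at 10.2 did not differ beyond counting error, nor did Uros at 6.66 and Fech at 5.89 CPM per kilobase.

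This order rests on the length used. The deposited length of Alad is 4.59 kilobases, whereas the exons of its GENCODE M21 transcripts cover 1.87 kilobases, and for Fech the values are 3.33 and 13.8 kilobases. With GENCODE exon lengths Alad was the highest enzyme in both libraries (12.3 and 25.1 CPM per kilobase), and Fech was the lowest in fresh cells (2.09). In fresh cells Urod (11.8) and Ppox (10.7) lay close below Alad, and counting intervals between neighbours were not computed with these lengths. Alas1 was above Alas2 in the fresh library with either length, at 3.0 and 2.42 CPM per kilobase with GENCODE lengths.

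Promoter sequences were available for 8 of the 9 members (RefSeq, GRCm38.p6, 250 bases before to 50 after each start). They are shown for motifs that are textbook sites of growth and erythroid factors. The E-box CACGTG, read on both strands, was found near starts of Alad, Urod and Uros, and in 7.15% of 32851 promoters or 8.09% of 27025 genes overall. The GATA motif, searched on both strands as AGATAA or as AGATAG, and likewise as TGATAA or as TGATAG, was found near starts of Alas2, Cpox and Uros, and in 29.8% of promoters or 33% of genes overall. Capitals mark a single match in each window, and each window is read on the strand of its gene. Cpox also had the match CTATCT, which overlaps the marked match and is partly in lower case, and TTATCT just after the start.
Alad E-box, upstream start: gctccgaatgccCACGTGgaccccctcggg
Alad E-box, downstream start: ccgccccgccccCACGTGggcttgcgcttt
Urod E-box: cactggatcggtCACGTGgttctcaatatg
Alas2 GATA motif: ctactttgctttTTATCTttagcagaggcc
Cpox GATA motif: aaagcgcctatcTTATCAgtccaagcacct
The windows lie at chr4:62520151-62520180 and chr4:62519920-62519949 for Alad and chr4:116994445-116994474 for Urod, all on the - strand. Those of Alas2 and Cpox lie at chrX:150547319-150547348 and chr16:58670110-58670139 on the + strand. Members with the same motif did not share a direction. Alad was 2.04-fold higher and Urod 1.22-fold lower in the expanded library, and Cpox was 3.60-fold higher where Alas2 had 0 counts. The Uros E-box lay 250 bases before a start, at the edge of the stretch searched, and its GATA matches lay near another start. No Uros window is shown, and the fold of Uros was 1.17 (interval 0.997 to 1.37).

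The other genes of iron handling went both ways, and each list can be read against the background over all genes (22.4% higher and 25.0% lower by 2-fold). Of 15 measured genes of the transferrin cycle, iron storage and export, 4 were higher in the expanded library and 6 lower (median log2 fold 0.21). Steap3, the endosomal ferrireductase that works beside the transferrin receptor, stood at 3.76 CPM in fresh and 16.8 CPM in expanded cells, a fold of 4.46 (interval 3.50 to 5.75). Slc11a2, the transporter that moves iron out of the endosome, stood at 110 and 48.5 CPM, 2.27-fold lower (2.10 to 2.44). The metal importers Slc39a8 (4.55 and 43.6 CPM) and Slc39a14 (29.2 and 189 CPM) were the genes furthest up. The ferritin genes Ftl1 (153 and 544 CPM) and Fth1 (747 and 1219 CPM) were 3.56-fold (3.42 to 3.70) and 1.63-fold (1.60 to 1.67) higher. Both ferritins have many processed copies in the genome, so their counts are uncertain. The genes furthest down were the iron exporter Slc40a1, with 97.9 CPM and 0 counts, and Hfe, a partner of the transferrin receptor, at 19.5 and 0.381 CPM. Against the limit of 3 counts Slc40a1 was at least 686-fold lower, and the exact interval of its ratio starts at 558-fold. The macrophage markers described above (summed level 1125 and 46.0 CPM) were lower in the same library, and their part in these values was not tested.

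Regulators of Tfrc mRNA were apart in some cases. Of 11 genes of iron sensing and mRNA regulation, 2 were higher, 2 lower and 7 between (median -0.04). The iron regulatory protein genes Aco1 (37.1 and 68.2 CPM) and Ireb2 (88.1 and 115 CPM) were 1.84-fold (1.68 to 2.01) and 1.30-fold (1.23 to 1.38) higher in the expanded library, both under 2-fold. The hypoxia factor genes Epas1 (8.87 and 178 CPM) and Hif1a (143 and 570 CPM) were furthest up. Zc3h12a, which encodes Regnase-1, an endoribonuclease known to degrade Tfrc mRNA, stood at 321 and 14.1 CPM, 22.8-fold lower in expanded cells (interval 20.3 to 25.7). Rc3h1, which encodes Roquin-1, stood at 181 and 86.7 CPM. Bach1, a repressor that senses heme, stood at 58.0 and 30.2 CPM. The log2 fold of Bach1 was -0.94, and it passed 2-fold with 3 other scalings (-1.10 with total counts), whereas that of Rc3h1 was -1.06 and came under 2-fold with summed Cd3 counts (-0.97).

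The mitochondrial iron importers stood lower, and the other genes of this list went both ways. Of 23 measured genes of mitochondrial iron import and iron-sulphur cluster assembly, 6 were higher, 3 lower and 14 between (median 0.28). Slc25a37, mitoferrin 1, stood at 85.0 CPM in fresh and 30.0 CPM in expanded cells, 2.84-fold lower (2.59 to 3.11). Slc25a28, mitoferrin 2, stood at 57.4 and 19.5 CPM, 2.95-fold lower (2.63 to 3.31). The genes furthest up were Cisd1 (9.48 and 63.7 CPM) and Cisd3 (9.34 and 41.3 CPM), which encode iron-sulphur proteins of mitochondria. The third gene at least 2-fold lower was Iba57, an assembly gene, at 18.1 and 8.09 CPM, and the scaffold gene Iscu stood at 18.5 and 11.2 CPM. Both were named after their values were seen.

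Genes that supply or control heme synthesis also went both ways. Of 19 genes of heme intermediate transport and control, 5 were higher, 2 lower and 12 between (median 0.73). Of all 11715 genes measured, 6164 lay between. Sfxn1, a mitochondrial serine carrier, stood at 53.6 and 218 CPM, and Shmt2, which makes glycine from serine in mitochondria, at 81.5 and 305 CPM. Slc25a38, the carrier that brings glycine to the starting enzyme, stood at 26.7 and 15.6 CPM, 1.71-fold lower (1.49 to 1.97). Furthest down were the coactivator genes Ppargc1b (13.4 and 3.0 CPM) and Ppargc1a, with 55 counts and 1 count.

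Of 8 measured genes of heme breakdown and uptake, 2 were higher and 4 lower (median -1.18). The biliverdin reductase gene Blvra (22.9 and 55.1 CPM) and the heme transporter gene Slc48a1 (43.1 and 94.6 CPM) were higher. Hmox1, the inducible heme oxygenase, stood at 119 and 63.0 CPM, 1.89-fold lower (1.77 to 2.02). With total counts the log2 fold of Hmox1 passed 2-fold (-1.08) and that of Slc48a1 came under it (0.98). The genes furthest down were Cd163, the macrophage receptor for haemoglobin, with 11.6 CPM and 0 counts, and Lrp1, a receptor for heme bound to hemopexin, at 38.6 and 0.333 CPM. Against the limit of 3 counts Cd163 was at least 81.1-fold lower, and the exact interval of its ratio starts at 65.4-fold. Macrophage markers were lower in the same library, as given above.

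**Figure D4:**
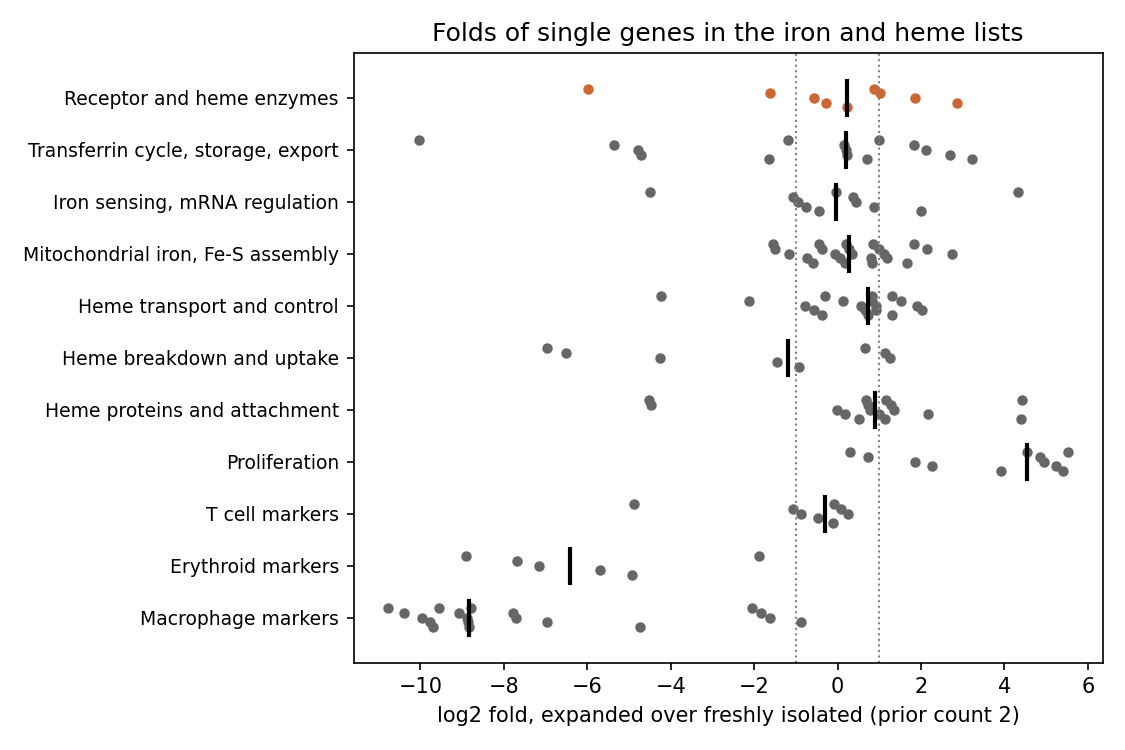
Log2 folds (expanded over fresh, prior count 2) of single measured genes in each list, with the list's median as a black bar and dotted lines at 2-fold. The receptor and heme enzymes (orange, median 0.22) spread to both sides, the erythroid (median -6.42) and macrophage markers (median -8.85) lie to the left, and the proliferation markers (median 4.54) to the right.

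Proliferation markers were higher together with Tfrc. Of 11 such genes, 9 were at least 2-fold higher and none lower (median 4.54), against 22.4% and 25.0% of all genes measured. Furthest up were the mitotic kinase gene Cdk1 (3.34 and 160 CPM) and the cyclin gene Ccnb1 (0.976 and 45.3 CPM). Myc, whose product is known to act on Tfrc, was nearest to no difference at 116 and 143 CPM, 1.23-fold higher (1.17 to 1.30).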

How the data were processed

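The authors deposited raw read counts (whole numbers) for each gene, beside gene spans and lengths on GRCm38 (mm10). Per the submitters' processing notes, the tools were STAR 2.6.0, HTSeq 0.6.0, bcl2fastq 2.18.0.12 and edgeR 3.28.1. Their settings, the annotation release, strand use and the definition of the deposited gene length are not given in the sources used here. Columns were matched to libraries by title. Counts were divided by TMM effective library sizes (edgeR 4.0.16, R 4.3.3; factors 1.056 and 0.947), so that 1 count equals 0.0465 CPM in the fresh and 0.0476 CPM in the expanded library. Log2 folds used a prior count of 2. Intervals are exact (Poisson for levels, conditional binomial for folds, conditional odds ratio for ratios between genes). Without molecular identifiers, reads are not independent molecules, and these intervals and the limit of 3 counts cover counting error only.

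The members and gene lists were chosen with earlier results of these data known, so they give no independent support. All 9 members are named, and of each other list mainly the 2 highest and the 2 lowest genes by log2 fold, with genes needed to place a member. A few genes of the lists are not reported here, and list values leave them out. Alternatives were 5 other scalings (among them DESeq2 1.42.0 size factors and summed Cd3 counts), prior counts of 0.5 and 5, other filters and a 4-fold limit. On simulated counts for this comparison (11724 genes), 100% of 198 genes with a true 4-fold change passed 2-fold, as did 2 unchanged genes. On these counts 95.2% of intervals held the true fold. The draws were Poisson, the model behind the intervals, so that share was all but fixed in advance. Few genes were changed, drawn in equal numbers up and down, whereas 22.4% of genes were higher and 25.0% lower by 2-fold in the data. The scaling was therefore not checked under differences as wide as those in the data. Spread between samples was not tested, so these values describe counting error only.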

Additional observations from a re-analysis of the deposited data

How the results depend on the processing

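No member changed direction under the 5 other scalings or the 2 other prior counts. The median log2 fold of all genes was 0.04 with TMM, -0.12 with total counts and 0.13 with summed Cd3 counts, and member folds shifted with it. Tfrc ranged from 2.70 to 2.95, Cpox from 1.69 to 1.94 and Ppox from -1.79 to -1.54. Alad lay under 2-fold with total counts (0.87), upper quartiles and total counts without the 50 most abundant genes, which leaves 2 members higher. At 4-fold, 1 member was higher (Tfrc) and 1 lower (Alas2). With a minimum mean of 5 CPM, which removes Alas2, 1 member was lower and the median was 0.56. The log2 fold of Alas2 ranged from -7.95 to -4.68 with the prior count. Among the other lists, with the main count in brackets, 1 gene of heme breakdown was higher with total counts (2), and with summed Cd3 counts 1 gene of iron sensing (2) and 1 T cell marker (2) were lower. With the minimum of 5 CPM, 1 gene of heme transport (2), 1 heme protein gene (2), 3 erythroid markers (6) and 4 B cell markers (8) were lower, and without a filter 14 erythroid markers were. The summed level of the 8 enzymes was 81.6 and 80.9 CPM per kilobase (fresh, expanded) with deposited lengths and 50.6 and 66.0 with GENCODE exon lengths, an alternative chosen after seeing the data, as was the share of Alas2 per kilobase. No paired analysis was possible because there was 1 library per group. Depth limits Uros, whose interval holds no difference, and the bound for Alas2.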

Other observations

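A list of heme proteins, heme attachment genes and their electron transfer partners went both ways in the expanded library. Of 16 measured, 8 were at least 2-fold higher and 2 lower (22.4% and 25.0% of all genes), with a median log2 fold of 0.89 against 0.04 over all genes. The number higher was 6 with total counts and 7 or 8 with the other scalings. The members furthest up act in sterol synthesis: Cyp51, a heme enzyme, stood at 27.4 CPM in fresh and 578 CPM in expanded cells, and Sqle, a flavin enzyme that receives electrons from cytochrome P450 reductase, at 12.5 and 272 CPM. The prostaglandin synthase genes Ptgs1 (9.43 and 0.333 CPM) and Ptgs2 (10.9 and 0.381 CPM) were furthest down. Macrophage markers were lower in the same library, and their part in these values was not tested.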
